A study of Homo sapiens with 16 samples.

Results

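The genes described here were 32 genes of cholesterol and fatty acid synthesis, with the genes that control and transport sterols, out of 26410 genes in the deposited tables. They were taken by symbol through the Ensembl identifiers of the rows, and all 32 were found. Grouped by role, 7 act in the mevalonate part of the pathway and 11 in making squalene and turning it into cholesterol. Another 5 act in the control of the pathway, 2 in sterol transport and 7 in fatty acid synthesis. RNA was sequenced in 16 libraries of SH-SY5Y, a human neuroblastoma cell line, in 4 groups of 4 libraries. The groups were Scr untreated, Scr after doxorubicin, TRPM2 KO untreated and TRPM2 KO after doxorubicin, and each group held 2 clones with 2 replicates per clone. Scr13 and Scr16, the Scr clones, were CRISPR controls made with a scrambled guide RNA. KO11 and KO28, the TRPM2 KO clones, had been edited at TRPM2, a calcium-permeable ion channel. All clones carried the GFP and puromycin vector and grew in DMEM/F-12 with 10% fetal bovine serum. Doxorubicin, an anthracycline that damages DNA, was given for 24 h at 0.3 µM in the sample labels, whereas the text deposited for the whole series gives 3 µM.

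Total reads on genes ran from 10481177 to 25086085 per library, with a median of 16037366.5. Values per library are given below as normalized CPM (reads scaled to a library size that the authors normalized), in the order Scr13 replicates 1 and 2, Scr16 replicates 1 and 2, and likewise KO11 and then KO28. Since replicates share a clone and each genotype is 2 clones, p-values measure the spread between these libraries, and genotype and clone cannot be told apart. The label of the cells was checked first. All 12 markers of adrenergic neuroblastoma were in the tables and 11 averaged at least 1 normalized CPM. The exception was TH, with group means from 0.224 to 0.523. CHGA was low too, with group means from 0.898 to 7.92, the last raised by a library at 26.4. DBH, which makes noradrenaline, had the highest mean over the 16 libraries, at 1585. HAND2, another of the 12, had a higher mean than DBH in both doxorubicin groups (1732 against 1418 in Scr and 1509 against 1438 in TRPM2 KO). The summed level of the 12 ran from 6201 to 7509. Blood markers summed to at most 0.882 normalized CPM, epithelial markers to at most 3.86 and hepatocyte and adipocyte markers to at most 0.827 in any library. These sums cover the markers in the tables, which were 2 of 6 blood, 3 of 5 epithelial and 3 of 6 hepatocyte and adipocyte markers.

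TRPM2 went against its label. In untreated libraries TRPM2 was at 0.118, 0.115, 0 and 0 normalized CPM in Scr and at 1.93, 2.23, 1.41 and 2.19 in TRPM2 KO. After doxorubicin it was at 0.0594, 0.0631, 1.33 and 0.390 in Scr and at 1.22, 1.83, 1.37 and 0.658 in TRPM2 KO. All 4 untreated libraries labelled TRPM2 KO were thus above all 4 Scr libraries, and after doxorubicin the groups overlapped. The study describes an edit that removed the start of the coding sequence and shifted the frame of the rest, and reads counted over the whole gene do not show that edit. Every direction between genotypes below therefore refers to libraries labelled TRPM2 KO. Of the 16 libraries, Scr16 doxorubicin replicate 1, which was also the shallowest, and KO28 untreated replicate 2 stood apart from their groups. Across genes, the mean correlation with the rest of the group was 0.973 for the first, against 0.979 to 0.981 for the other 3, and 0.979 for the second, against 0.982 to 0.984 for the other 3.

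Cholesterol is built from acetyl-CoA through mevalonate, isoprenoids and squalene, and fatty acids are built from the same acetyl-CoA by way of malonyl-CoA. When sterols are scarce, SCAP carries the SREBP transcription factors to the Golgi for cleavage, and the released factors raise transcription of most enzymes of both routes. When sterols are plentiful, INSIG proteins hold SCAP in the endoplasmic reticulum, and INSIG1 is itself a target of SREBP.

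Per kilobase of exon, untreated Scr libraries held most of FASN, the fatty acid synthase, at 99.4 ± 8.12 normalized CPM per kb (SD, n = 4), of ACLY, which makes cytosolic acetyl-CoA from citrate, at 78.5 ± 3.40, and of SCD, the stearoyl-CoA desaturase, at 58.7 ± 5.01. The lowest member was ACACA, an acetyl-CoA carboxylase, at 0.190 ± 0.0980 normalized CPM per kb, from only 11 to 78 reads in a library. The mevalonate enzymes lay between 3.53 ± 0.477 for MVK, the mevalonate kinase, and 30.8 ± 3.53 for PMVK, the phosphomevalonate kinase, on the same per-kilobase scale. LSS, the lanosterol synthase, and CYP51A1, the lanosterol demethylase, were low at 1.97 ± 0.384 and 1.59 ± 0.463 normalized CPM per kb. ACACA and CYP51A1 each overlap other genes on the same strand, and 3 pseudogenes are named after CYP51A1. How such reads were counted is not given in the sources used here, which limits what their low levels show. Summed over members, untreated Scr libraries held 334 ± 7.73 normalized CPM of mevalonate genes and 2343 ± 108 of fatty acid genes (SD, n = 4).

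The first question was how these genes changed after doxorubicin in each genotype. The members that changed mostly fell. In Scr, 10 of the 32 members fell (31.2%, against 5.65% of the 15325 genes tested) and 3 rose (9.38%, against 6.95%), so that 13 changed where 12.6% of all genes tested did. In TRPM2 KO, 15 fell (46.9%, against 7.43%) and 2 rose (6.25%, against 10.3%), so that 17 changed where 17.7% of all genes tested did. The tests were limma's moderated test on log2(CPM + 1) with a term for clone and Benjamini-Hochberg adjustment over all genes tested, on 1 scale for the 16 libraries. The median log2 fold change of the members was -0.19 in Scr and -0.33 in TRPM2 KO, beside -0.01 and 0.02 over all genes tested. All 4 doxorubicin libraries lay below all 4 untreated libraries for 12 members in Scr, where 8.14% of genes tested did so, and for 16 members in TRPM2 KO, where 8.16% did. All 32 members passed the filter on low values. Without the 2 libraries that stood apart, 10 members fell and 3 rose in Scr, and 16 fell and 2 rose in TRPM2 KO. In bulk RNA, fewer cells of a kind and less of an RNA per cell cannot be told apart.

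**Figure D1:**
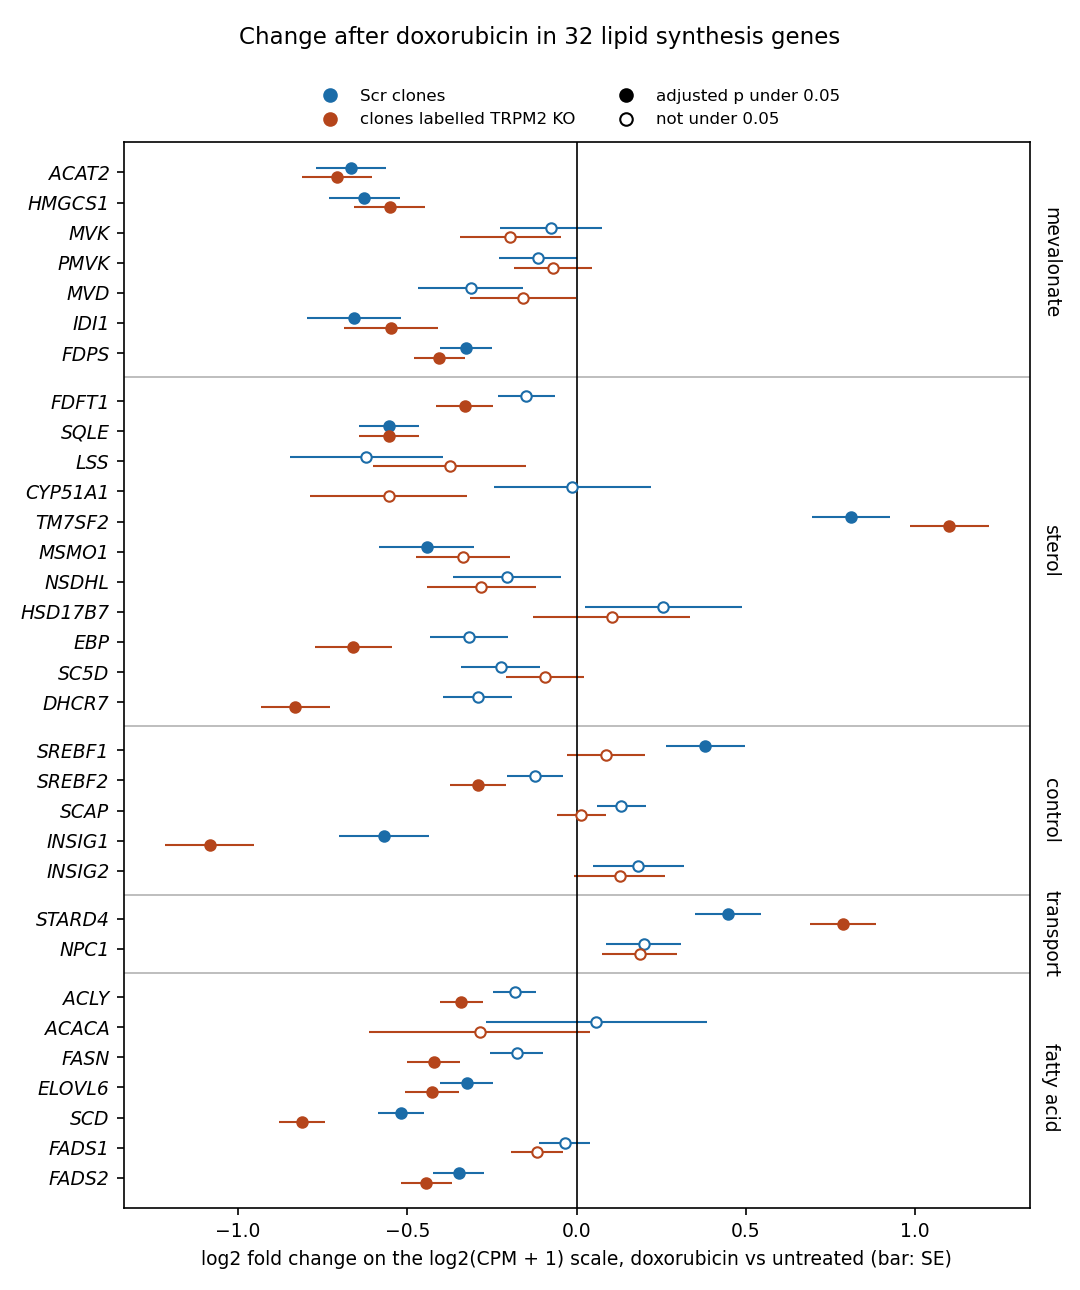
Log2 fold change after doxorubicin (x axis, log2(CPM + 1) scale) of each of the 32 members, grouped by role (right), in Scr clones (blue) and clones labelled TRPM2 KO (red). Bars are standard errors and filled points passed an adjusted p of 0.05. Most points lie left of 0, INSIG1 farthest left at -1.08 in TRPM2 KO and TM7SF2 farthest right at 1.10.

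The sequences just upstream of 3 members described next are given because INSIG1 and SCD were among the largest falls and SREBF2 alone, among members with a window, held the sterol element searched for. INSIG1 and SCD were chosen after their values were seen. Each run is taken from the 250 bases before the RefSeq start of the gene (GRCh38.p14) and stops before the GENCODE 29 start, which lies inside that stretch for all 3. The runs read 5′ to 3′ on the strand of the gene, with capitals marking matches on either strand to the sterol element TCACNCCAC, the E-box CACGTG, the CCAAT box CCAAT or the GC box GGGCGG. They are chr7:155297628-155297775 (plus strand, 148 bases) for INSIG1, chr10:100346983-100347123 (plus strand, 141 bases) for SCD and chr22:41832855-41833078 (plus strand, 224 bases) for SREBF2, the last lying within an exon of the antisense gene SREBF2-AS1.
INSIG1: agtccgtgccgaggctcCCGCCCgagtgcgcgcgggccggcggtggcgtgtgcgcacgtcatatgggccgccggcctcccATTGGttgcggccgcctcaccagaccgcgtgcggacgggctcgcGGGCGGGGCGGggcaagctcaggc
SCD: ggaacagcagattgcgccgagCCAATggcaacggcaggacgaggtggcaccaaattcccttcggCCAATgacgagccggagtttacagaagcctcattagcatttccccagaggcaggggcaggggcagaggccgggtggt
SREBF2: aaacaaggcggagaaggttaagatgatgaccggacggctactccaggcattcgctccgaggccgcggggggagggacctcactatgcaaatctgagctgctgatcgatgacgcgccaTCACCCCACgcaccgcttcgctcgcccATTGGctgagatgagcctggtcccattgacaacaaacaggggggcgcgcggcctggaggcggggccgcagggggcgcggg
The INSIG1 run held 1 CCAAT box and 3 GC boxes, of which 1 pair shares a base, and an E-box began 55 bases before the RefSeq start, past the end of the run. The SCD run held 2 CCAAT boxes, and its GC boxes were past the end of the run. SREBF2, which encodes one of the SREBP factors, held the sterol element 133 bases before its RefSeq start, with 1 CCAAT box in the run. Windows of 300 bases that run 50 bases past the start were given for 28 members and for 27305 genes in all. The sterol element was in a window of 1 member (3.57%) and of 1.39% of all these genes. The CCAAT box was in 20 of the 28 (71.4%, against 39.7% of all these genes and 43.0% of those tested). The GC box was in 27 (96.4%, against 48.3% and 77.3%), and the E-box in 4 (14.3%, against 8.78% and 12.3%). These are letter matches and no binding was measured. The genes with the largest changes are protein-coding, and their positions are those of GENCODE 29 on GRCh38. INSIG1 (ENSG00000186480) is at chr7:155297776-155310235 on the plus strand, and SCD (ENSG00000099194) at chr10:100347124-100364834 on the plus strand. TM7SF2 (ENSG00000149809) is at chr11:65111845-65116384 on the plus strand, and STARD4 (ENSG00000164211) at chr5:111496033-111512590 on the minus strand. DHCR7 (ENSG00000172893) is at chr11:71428193-71452868 on the minus strand.

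In the mevalonate group, 4 of 7 genes fell in both genotypes. ACAT2, which condenses acetyl-CoA to acetoacetyl-CoA, was at 50.4, 48.6, 53.3 and 48.6 normalized CPM in untreated Scr and at 33.9, 34.7, 25.6 and 31.9 after doxorubicin. The KO libraries held it at 60.1, 55.4, 59.3 and 48.7 untreated and at 34.3, 36.6, 32.4 and 31.4 after doxorubicin. Doxorubicin libraries were below untreated ones throughout, and ACAT2 fell, with a log2 fold change of -0.67 ± 0.10 (SE, adjusted p = 3.43e-05) in Scr and -0.71 ± 0.10 (SE, adjusted p = 9.52e-06) in TRPM2 KO. HMGCS1, the cytosolic HMG-CoA synthase, was at 55.7, 59.3, 62.7 and 56.3 normalized CPM in untreated Scr and at 43.8, 36.4, 35.7 and 35 after doxorubicin. Its KO values were 75.7, 73.7, 65.3 and 50.9 untreated and 42.8, 43.1, 46 and 45.6 after doxorubicin. The groups did not overlap in either genotype, although KO28 untreated replicate 2, one of the libraries that stood apart, came close to the treated level. HMGCS1 fell, with a log2 fold change of -0.63 ± 0.11 (SE, adjusted p = 9.77e-05) in Scr and -0.55 ± 0.11 (SE, adjusted p = 0.000314) in TRPM2 KO. IDI1, the isopentenyl diphosphate isomerase, was at 33.6, 37.5, 38.1 and 33.1 normalized CPM in untreated Scr and 25.3, 23.7, 16.3 and 24.8 after doxorubicin. In TRPM2 KO, IDI1 was at 40.2, 34.2, 26 and 28.6 untreated and at 23.5, 22.4, 24.2 and 16.4 after doxorubicin. It was lower in every treated library of either genotype, with log2 fold changes of -0.66 ± 0.14 (SE, adjusted p = 0.00147) and -0.55 ± 0.14 (SE, adjusted p = 0.00521). FDPS, the farnesyl diphosphate synthase, was at 103, 103, 113 and 112 normalized CPM in untreated Scr and 86.5, 86.9, 82 and 87.4 after doxorubicin. In TRPM2 KO, FDPS was at 109, 111, 114 and 118 untreated and at 82.1, 93.2, 78.4 and 86.9 after doxorubicin. All treated libraries lay below all untreated ones, and the log2 fold changes were -0.33 ± 0.08 (SE, adjusted p = 0.00372) and -0.41 ± 0.08 (SE, adjusted p = 0.000265), with the limit that 8 pseudogenes named after FDPS could share its reads. MVK, PMVK and MVD, the kinases and the decarboxylase in between, did not pass the test, with log2 fold changes from -0.31 (MVD in Scr) to -0.07 (PMVK in TRPM2 KO). Leaving out clone KO11 ended the TRPM2 KO calls of HMGCS1 and IDI1 (adjusted p = 0.221 and 0.249), and leaving out Scr16 those of IDI1 and FDPS in Scr (adjusted p = 0.0894 and 0.225).

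In the sterol group of 11 genes, 2 fell and 1 rose in Scr, and 4 fell and 1 rose in TRPM2 KO. SQLE, the squalene epoxidase, was at 67, 75.6, 74.6 and 81.2 normalized CPM in untreated Scr and 48.4, 50.5, 53.3 and 50.0 after doxorubicin. In TRPM2 KO, SQLE was at 74.3, 80.8, 68.7 and 66.8 untreated and at 45.2, 47.4, 49.8 and 53.6 after doxorubicin. No treated library reached an untreated one, and the log2 fold changes were close, at -0.55 ± 0.09 (SE, adjusted p = 5.3e-05) in Scr and -0.56 ± 0.09 (SE, adjusted p = 3.29e-05) in TRPM2 KO. Without clone KO11 the call in TRPM2 KO was lost (adjusted p = 0.0711). DHCR7, the reductase of the last step to cholesterol, was at 40.1, 41.7, 39 and 39.9 normalized CPM in untreated Scr and 35.7, 30.2, 29.8 and 35.7 after doxorubicin. In TRPM2 KO it was at 49.2, 54.5, 45.6 and 49.1 untreated and 26.1, 27.4, 28.6 and 27.2 after doxorubicin. Both genotypes had every treated library below every untreated one, but DHCR7 passed the test in TRPM2 KO, at a log2 fold change of -0.83 ± 0.10 (SE, adjusted p = 5.94e-07), and in Scr had -0.29 ± 0.10 (SE, adjusted p = 0.0578). EBP, the sterol isomerase, was at 37.6, 40.0, 41.5 and 36.5 normalized CPM in untreated Scr and 25.8, 33.1, 32.5 and 33.4 after doxorubicin. In TRPM2 KO, EBP was at 45.3, 44, 52.6 and 52.5 untreated and at 30.1, 36.2, 27.9 and 27.4 after doxorubicin. Its groups did not overlap, and the log2 fold change was -0.66 ± 0.11 (SE, adjusted p = 9.59e-05) in TRPM2 KO, a call lost without clone KO28 (adjusted p = 0.0876), and -0.32 ± 0.11 (SE, adjusted p = 0.0647) in Scr.

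FDFT1, the squalene synthase, was at 72, 83.6, 76.8 and 73.4 normalized CPM in untreated Scr and 67.9, 68.1, 62.9 and 77.4 after doxorubicin, values that overlapped. The KO libraries held it at 95.8, 102, 104 and 104 untreated and 72.1, 82.9, 78.7 and 88.4 after doxorubicin, with no overlap and a log2 fold change of -0.33 ± 0.08 (SE, adjusted p = 0.00575), a call lost without either KO clone (adjusted p = 0.153 without KO11 and 0.0717 without KO28). In Scr the log2 fold change of FDFT1 was -0.15 ± 0.08 (SE, adjusted p = 0.273). MSMO1, the sterol methyl oxidase, was at 26.5, 31, 31.5 and 29.5 normalized CPM in untreated Scr and 20.3, 19.2, 26.8 and 20.6 after doxorubicin. In TRPM2 KO, MSMO1 was at 40.2, 42.2, 27.6 and 28.6 untreated and at 23.3, 24.3, 28.1 and 31.9 after doxorubicin. The Scr groups overlapped by Scr13 untreated replicate 1 and Scr16 doxorubicin replicate 1. MSMO1 passed the test in Scr, at -0.44 ± 0.14 (SE, adjusted p = 0.0334), and not in TRPM2 KO, at -0.34 ± 0.14 (SE, adjusted p = 0.10). Its Scr call was lost without any 1 of 5 libraries, namely Scr13 untreated replicate 2, Scr13 doxorubicin replicates 1 and 2, Scr16 untreated replicate 1 and Scr16 doxorubicin replicate 2 (adjusted p from 0.0715 to 0.126), without either Scr clone (adjusted p = 0.350 without Scr13 and 0.134 without Scr16), or with no filter on low values (adjusted p = 0.106). In TRPM2 KO, MSMO1 was called without clone KO28 (log2 fold change -0.76, adjusted p = 0.00385), without KO28 doxorubicin replicate 2 (log2 fold change -0.46, adjusted p = 0.0323) or without the libraries that stood apart (-0.41, adjusted p = 0.0450).

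TM7SF2, a sterol reductase of the same route, went the other way and, with both clones of a genotype, rose more than any other member. By clone, STARD4 was higher in KO28 (0.80, against 0.77) and ACACA in Scr13 (0.83, against 0.80). TM7SF2 was at 37.4, 30.4, 32 and 29.6 normalized CPM in untreated Scr and 63, 55.8, 55.6 and 55.5 after doxorubicin. Its KO values were 31.7, 24.6, 43.5 and 38.7 untreated and 80.8, 73.3, 71.3 and 70.0 after doxorubicin. Every treated library was far above every untreated one, at log2 fold changes of 0.81 ± 0.12 (SE, adjusted p = 1.05e-05) in Scr and 1.10 ± 0.12 (SE, adjusted p = 3.52e-08) in TRPM2 KO, a 1.75-fold and a 2.14-fold rise on the log2(CPM + 1) scale. VPS51, a vesicle tethering gene that overlaps TM7SF2 on the same strand, had a log2 fold change of 0.30 (adjusted p = 0.0118) in Scr and 0.02 (adjusted p = 0.908) in TRPM2 KO. How the authors' counting divided reads of the overlap is not given in the sources used here. The other sterol genes were LSS, CYP51A1, the C4 demethylation enzymes NSDHL and HSD17B7, and SC5D, a desaturase, and they did not pass the test in either genotype. Their log2 fold changes ran from -0.62 (LSS) to 0.26 (HSD17B7) in Scr and from -0.55 (CYP51A1) to 0.10 (HSD17B7) in TRPM2 KO. LSS, from 64 to 321 reads in a library, was called in Scr without Scr13 doxorubicin replicate 2 (log2 fold change -0.88, adjusted p = 0.00856) or Scr16 doxorubicin replicate 2 (-0.74, adjusted p = 0.0425).

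Among the 5 control genes, INSIG1 moved most in both genotypes, although in clone Scr16 SREBF1 moved more (0.57, against -0.40 for INSIG1). INSIG1 was at 24.4, 25.4, 20.8 and 22.5 normalized CPM in untreated Scr and 14.1, 14.8, 18.3 and 14.6 after doxorubicin. In TRPM2 KO it was at 34.5, 32.8, 28.4 and 33.1 untreated and 13.9, 15.3, 14 and 15.2 after doxorubicin. Treated libraries of both genotypes overlapped, whereas the untreated KO libraries started higher, and INSIG1 fell, with a log2 fold change of -0.57 ± 0.13 (SE, adjusted p = 0.00360) in Scr and -1.08 ± 0.13 (SE, adjusted p = 4.64e-07) in TRPM2 KO. The Scr call of INSIG1 was lost without clone Scr13 (adjusted p = 0.296), and the KO call held without either KO clone. SREBF2, from the promoter shown above, was at 149, 201, 172 and 183 normalized CPM in untreated Scr and 165, 179, 156 and 148 after doxorubicin. In TRPM2 KO, SREBF2 was at 178, 206, 206 and 200.4 untreated and at 161, 161, 167 and 154 after doxorubicin. The Scr groups overlapped and the KO groups did not, with log2 fold changes of -0.12 ± 0.08 (SE, adjusted p = 0.369) in Scr and -0.29 ± 0.08 (SE, adjusted p = 0.0120) in TRPM2 KO. The KO call of SREBF2 was lost without KO11 untreated replicate 2 (adjusted p = 0.0600) or KO28 doxorubicin replicate 2 (adjusted p = 0.0525), and without either KO clone (adjusted p = 0.0989 without KO11 and 0.238 without KO28), as well as with no filter on low values (adjusted p = 0.0528). SREBF1, which encodes the SREBP factor best known for fatty acid genes, was at 41.9, 39.1, 38.5 and 35.4 normalized CPM in untreated Scr and 48.5, 43.8, 60.5 and 51.7 after doxorubicin. In TRPM2 KO, SREBF1 was at 33.6, 36.1, 37 and 52.1 untreated and at 43.6, 32.6, 43.2 and 48.4 after doxorubicin. The Scr groups did not overlap and the KO groups did. SREBF1 rose in Scr by a log2 fold change of 0.38 ± 0.12 (SE, adjusted p = 0.0277) and had 0.09 ± 0.12 (SE, adjusted p = 0.681) in TRPM2 KO. Its Scr call was lost without Scr16 doxorubicin replicate 1 (adjusted p = 0.127), without 3 other libraries, Scr13 doxorubicin replicate 1 and Scr16 untreated replicates 1 and 2 (adjusted p from 0.0556 to 0.113), without clone Scr16 (log2 fold change 0.19, adjusted p = 0.581), without both libraries that stood apart (log2 fold change 0.30, adjusted p = 0.0887), and with no filter on low values (adjusted p = 0.0902). SCAP and INSIG2, an escort and a retention protein of SREBP, did not pass the test, with log2 fold changes from 0.01 to 0.18.

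STARD4, a soluble carrier that moves cholesterol between membranes, rose in both genotypes. It was at 54, 43.3, 49.7 and 38.6 normalized CPM in untreated Scr and 78, 60.1, 61.5 and 55.3 after doxorubicin. The KO libraries held it at 56.3, 56.1, 48.6 and 51.5 untreated and 96.7, 96.3, 92.7 and 83.3 after doxorubicin. The Scr groups were separated by a narrow margin and the KO groups by a wide one, with log2 fold changes of 0.45 ± 0.10 (SE, adjusted p = 0.00212) in Scr, a call lost without clone Scr13 (adjusted p = 0.102), and 0.79 ± 0.10 (SE, adjusted p = 6.5e-07) in TRPM2 KO. NPC1, which exports cholesterol from lysosomes, had log2 fold changes of 0.20 ± 0.11 (SE, adjusted p = 0.265) in Scr and 0.19 ± 0.11 (SE, adjusted p = 0.272) in TRPM2 KO. Without Scr16 doxorubicin replicate 1, a library that stood apart, NPC1 was called in Scr (log2 fold change 0.33, adjusted p = 0.0343).

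**Figure D2:**
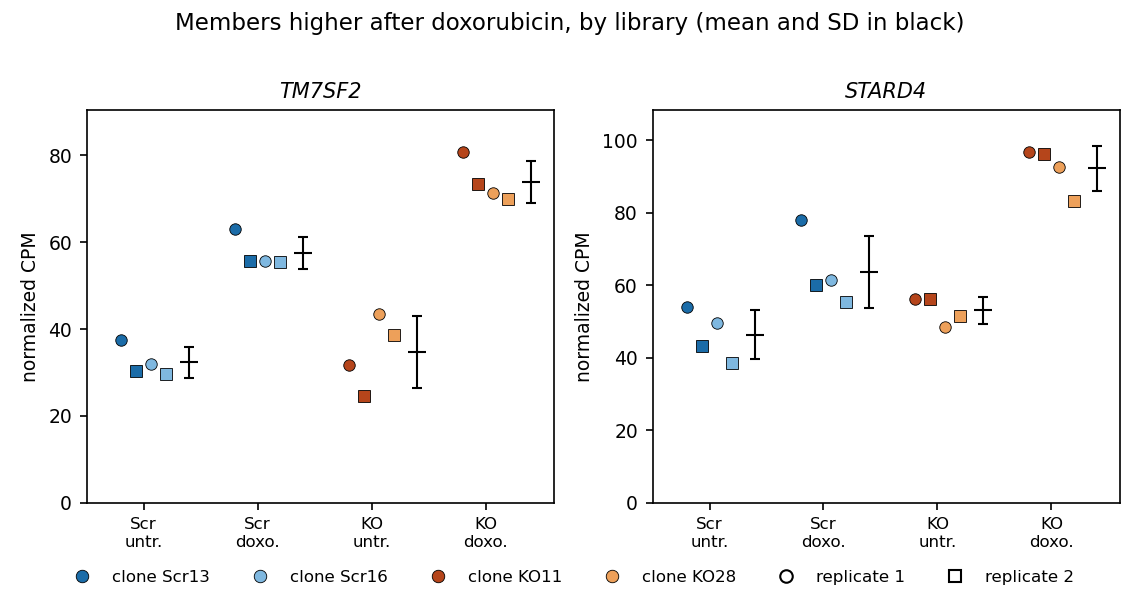
Normalized CPM (y axis, from 0) of TM7SF2 and STARD4 in each library of the 4 groups (x axis). Colours are clones, shapes are replicates, and black marks are the mean and SD of 4 libraries. TM7SF2 lies between 55.5 and 80.8 in all 8 doxorubicin libraries and between 24.6 and 43.5 in all 8 untreated ones.

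In the fatty acid group, 3 of 7 genes fell in Scr and 5 in TRPM2 KO. SCD, which puts the first double bond into saturated fatty acids, was at 299, 285, 333 and 341 normalized CPM in untreated Scr and 202, 208, 219 and 251 after doxorubicin. Its KO values were 314, 315, 277 and 278 untreated and 161, 163, 170.2 and 176 after doxorubicin. The KO libraries were lowest of all after treatment, and SCD fell, with a log2 fold change of -0.52 ± 0.07 (SE, adjusted p = 3.18e-06) in Scr and -0.81 ± 0.07 (SE, adjusted p = 3.78e-10) in TRPM2 KO, 2 calls that held without any 1 library or clone. FADS2, the delta-6 desaturase, was at 326, 369, 339 and 370.5 normalized CPM in untreated Scr and 239, 287, 277 and 304 after doxorubicin. In TRPM2 KO, FADS2 was at 365, 388, 364 and 390.4 untreated and at 308, 269, 248 and 283 after doxorubicin. Treated libraries were below untreated ones in both genotypes, with log2 fold changes of -0.35 ± 0.08 (SE, adjusted p = 0.00196) and -0.44 ± 0.08 (SE, adjusted p = 7.82e-05), although FADS2 overlaps FADS1 on the opposite strand and FEN1 on its own, and how reads of the overlaps were counted is not given. ELOVL6, an elongase of saturated chains, was at 90.1, 90.6, 92.1 and 87.9 normalized CPM in untreated Scr and 68.8, 67.8, 80.2 and 71.7 after doxorubicin. In TRPM2 KO, ELOVL6 was at 87.2, 82, 84.3 and 85.1 untreated and at 57.4, 65.9, 67 and 60.4 after doxorubicin. It too was lower in every treated library, at log2 fold changes of -0.32 ± 0.08 (SE, adjusted p = 0.00551) and -0.43 ± 0.08 (SE, adjusted p = 0.000229). Without clone Scr13 the Scr calls of ELOVL6 and FADS2 were lost (adjusted p = 0.268 and 0.110).

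FASN, the most abundant member, was at 926, 952, 831 and 1014 normalized CPM in untreated Scr and 754, 817, 824 and 902 after doxorubicin. In TRPM2 KO, FASN was at 921, 941, 913 and 1064 untreated and at 782, 632, 720.0 and 728 after doxorubicin. The Scr groups overlapped and the KO groups did not. FASN fell in TRPM2 KO, at a log2 fold change of -0.42 ± 0.08 (SE, adjusted p = 0.000234) and had -0.18 ± 0.08 (SE, adjusted p = 0.145) in Scr. ACLY was at 404, 414, 389 and 431 normalized CPM in untreated Scr and 340.2, 364, 368 and 374 after doxorubicin. In TRPM2 KO, ACLY was at 440.0, 432, 416 and 436 untreated and at 332, 356, 322 and 349 after doxorubicin. Neither pair of groups overlapped, and ACLY had log2 fold changes of -0.34 ± 0.06 (SE, adjusted p = 0.000243) in TRPM2 KO and -0.18 ± 0.06 (SE, adjusted p = 0.0563) in Scr. FASN was called in Scr without Scr16 untreated replicate 1 (log2 fold change -0.25, adjusted p = 0.0468), and ACLY without that library (-0.22, adjusted p = 0.0411) or without KO28 doxorubicin replicate 1 (-0.18, adjusted p = 0.0442), a library of the other genotype. ACLY was also called in Scr by DESeq2, with library size alone and with a minimum of 10 reads in every library (adjusted p from 0.0110 to 0.0480). ACACA and FADS1, the delta-5 desaturase, did not pass the test in either genotype, with log2 fold changes from -0.29 to 0.06 for ACACA and of -0.04 and -0.12 for FADS1.

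**Figure D3:**
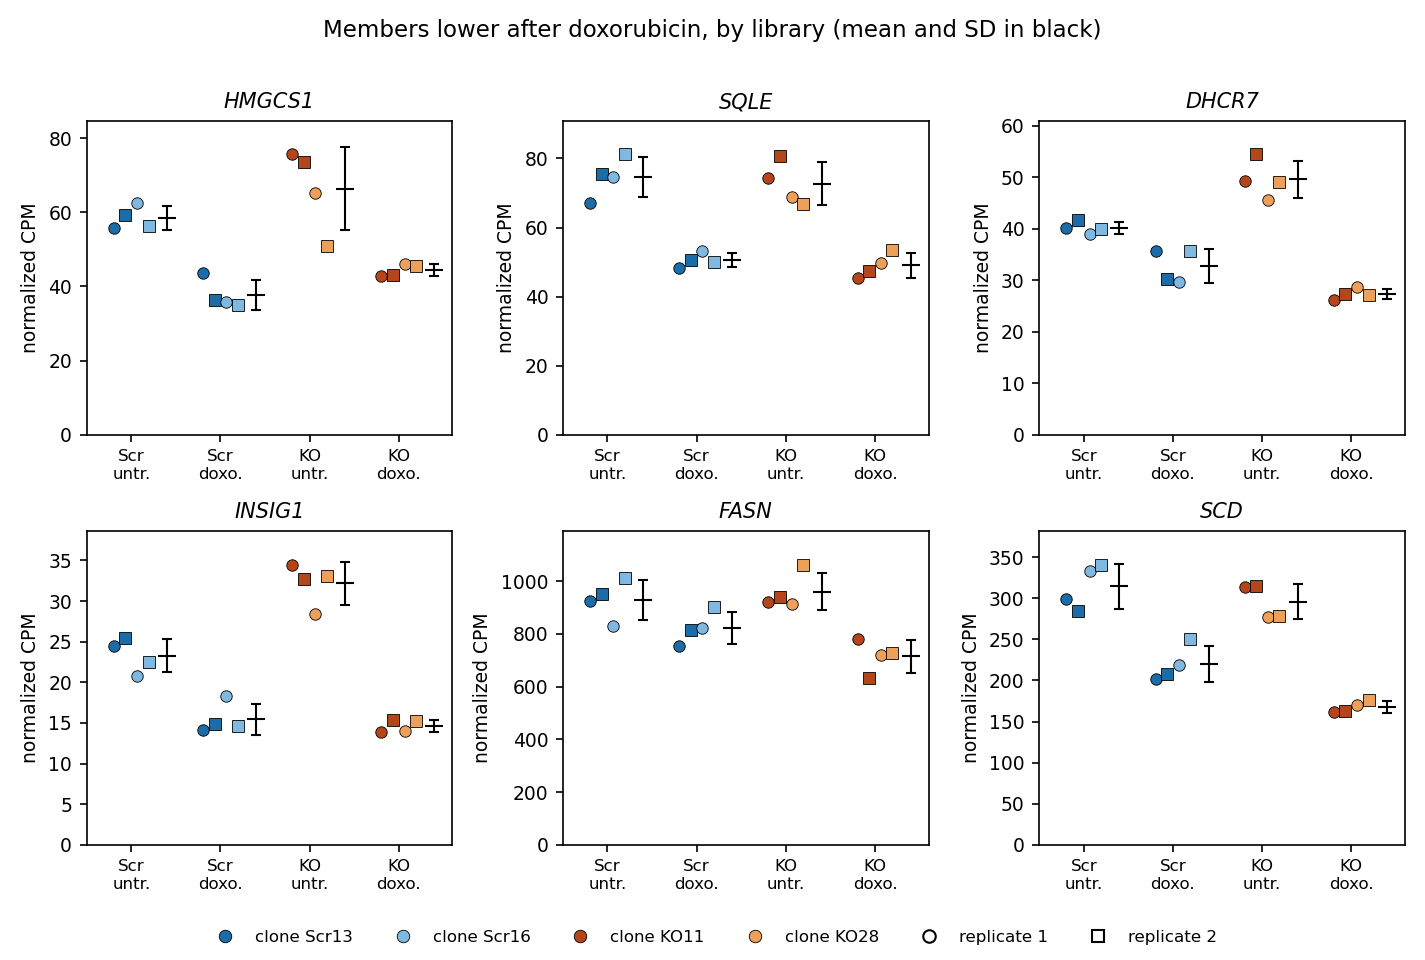
Normalized CPM (y axis, from 0) of 6 members in each library of the 4 groups (x axis). Colours are clones, shapes are replicates, and black marks are the mean and SD of 4 libraries. SCD lies between 161 and 176 in the 4 treated KO libraries and between 277 and 341 in the 8 untreated libraries.

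Of the members that fell, 9 did so in both genotypes (28.1% of members, against 3.27% of genes tested), which is 9 of the 10 in Scr and 9 of the 15 in TRPM2 KO. Over all genes tested, 501 fell in both, of 866 in Scr and 1138 in TRPM2 KO. MSMO1 was the 1 member called in Scr only. The 6 called in TRPM2 KO only were FDFT1, EBP, DHCR7, SREBF2, ACLY and FASN. DHCR7 was also called in Scr by DESeq2 (adjusted p = 0.0362), with library size alone, with no filter on low values and without Scr16 doxorubicin replicate 2 (adjusted p from 0.0350 to 0.0465). EBP was called in Scr with library size alone (adjusted p = 0.0422) and without Scr13 doxorubicin replicate 2 (adjusted p = 0.0498). A call in 1 genotype is no test of a difference between them, and the interaction is given further on. Taken clone by clone, 18 of the 32 members were lower after doxorubicin in all 4 clones (56.2%, against 19.2% of the 15325 genes tested), and 5 were higher in all 4 (15.6%, against 20.4%). The 5 were TM7SF2, STARD4, SREBF1, NPC1 and HSD17B7, the last at a difference of only 0.0032 on the log2 scale in KO28. The median log2 change of the 32 members was -0.24 in Scr13, -0.23 in Scr16, -0.33 in KO11 and -0.33 in KO28. The clones differed most for MSMO1 among the KO clones, at -0.76 in KO11 and 0.09 in KO28, and for ACACA among the Scr clones, at 0.83 in Scr13 and -0.71 in Scr16. The sum of the mevalonate genes went from 334 ± 7.73 to 252 ± 16.8 normalized CPM in Scr and from 346 ± 10.9 to 257 ± 11.4 in TRPM2 KO (SD, n = 4). The sum of the fatty acid genes went from 2343 ± 108 to 1996 ± 120 normalized CPM in Scr and from 2405 ± 87.8 to 1798 ± 57.8 in TRPM2 KO. The sum of the sterol genes went from 371 ± 10.1 to 331 ± 10.6 normalized CPM in Scr and from 424 ± 10.7 to 358 ± 11.7 in TRPM2 KO. None of these 3 sums had overlapping groups in either genotype. A sum mostly follows its most abundant genes. FASN alone averaged 931 normalized CPM in untreated Scr, and its own Scr groups overlapped. The sum of the control genes was 442 ± 18.9 and 453 ± 4.63 normalized CPM in Scr, with overlap, and went from 461 ± 23.1 to 412 ± 15.4 in TRPM2 KO, without overlap. The sum of the transport genes was higher after doxorubicin, at 86.2 ± 6.82 and 110.2 ± 15.3 in Scr, where the groups overlapped, and at 94.7 ± 4.61 and 139.6 ± 6.98 in TRPM2 KO, where they did not.

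**Figure D4:**
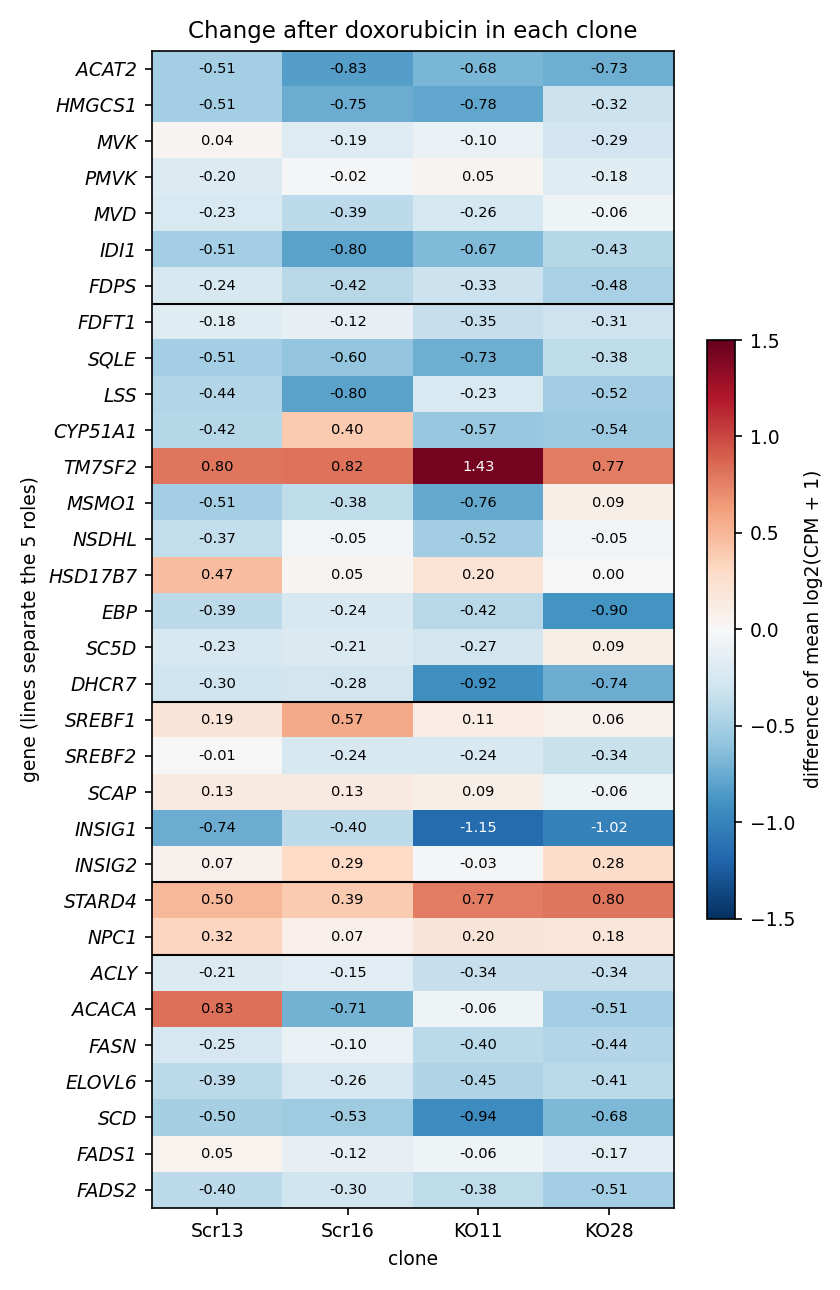
Difference of mean log2(CPM + 1) between doxorubicin and untreated libraries (colour and printed value) for each of the 32 members (rows) in each clone (columns). Each mean is over 2 replicates and lines separate the 5 roles. INSIG1 ranges from -0.40 in Scr16 to -1.15 in KO11, and TM7SF2 from 0.77 in KO28 to 1.43 in KO11.

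The next question was how libraries labelled TRPM2 KO differed from Scr without treatment. Few members passed the test. FDFT1 and INSIG1 were higher in TRPM2 KO, 2 of 32 members (6.25%, against 2.30% of the 14364 genes tested), and 0 were lower, where 2.54% of genes tested were, so that 6.25% of members changed beside 4.84% of all genes tested. At an unadjusted p under 0.05, 4 members differed (12.5%, against 14.3% of genes tested), all of them higher. By DESeq2, 4 were higher and 0 lower, and by edgeR 2 and 0. The tests were limma's on log2(normalized CPM + 1) of the 8 untreated libraries. From the values given above, all 4 KO libraries of FDFT1 were above all 4 Scr libraries, with means of 101 ± 3.83 and 76.4 ± 5.18 normalized CPM and a log2 fold change of 0.41 ± 0.08 (SE, adjusted p = 0.00249). Without clone Scr16 the call was lost (adjusted p = 0.0664). INSIG1 likewise had no overlap, with means of 32.2 ± 2.65 in TRPM2 KO and 23.3 ± 2.06 in Scr and a log2 fold change of 0.45 ± 0.12 (SE, adjusted p = 0.0268). That call was lost without any 1 of 5 libraries, KO11 replicates 1 and 2, Scr13 replicate 1 and Scr16 replicates 1 and 2 (adjusted p from 0.0559 to 0.0903), without any of the clones KO11, Scr13 and Scr16 (adjusted p from 0.0871 to 0.390), when the replicates of a clone were averaged (adjusted p = 0.0931), and with no filter on low values (adjusted p = 0.0552). EBP, at 0.31 ± 0.10 (SE, adjusted p = 0.0897), and DHCR7, at 0.29 ± 0.09 (SE, adjusted p = 0.0885), had every KO library above every Scr library and did not pass the test. They were the members that DESeq2 added, and EBP was also called without clone KO11 (adjusted p = 0.0356). HMGCS1 and MSMO1, at 0.16 and 0.20 with all libraries, were called higher without clone KO28, at 0.35 (adjusted p = 0.0356) and 0.47 (adjusted p = 0.0308). ELOVL6 had every KO library below, at -0.09 ± 0.07 (SE, adjusted p = 0.659). In all, 5 members had groups that did not overlap (15.6%, against 9.29% of genes tested), and the median log2 fold change was 0.06 for members and -0.01 for all genes tested.

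Genotypes were also compared after doxorubicin. STARD4 and TM7SF2 were higher in TRPM2 KO, 2 of 32 (6.25%, against 4.52% of the 14572 genes tested), and SCD was lower, 1 of 32 (3.12%, against 4.17%), so that 9.38% of members changed beside 8.69% of genes tested. At an unadjusted p under 0.05, 11 members differed (34.4%, against 20.3% of genes tested). FDFT1, called untreated, had a log2 fold change of 0.22 ± 0.09 (SE, adjusted p = 0.169) here. STARD4 had means of 92.3 ± 6.25 normalized CPM in TRPM2 KO and 63.7 ± 9.88 in Scr, and every KO library was above every Scr library. Its log2 fold change was 0.54 ± 0.10 (SE, adjusted p = 0.000941). TM7SF2 had means of 73.8 ± 4.82 and 57.5 ± 3.70 normalized CPM, again with no overlap, and a log2 fold change of 0.36 ± 0.09 (SE, adjusted p = 0.0118), a call lost without KO11 doxorubicin replicate 1 (adjusted p = 0.0755) and without any of the clones KO11, Scr16 and KO28 (adjusted p from 0.0511 to 0.258). VPS51, the gene overlapping TM7SF2, was lower in TRPM2 KO here (log2 fold change -0.30, adjusted p = 0.0165). SCD had means of 168 ± 6.74 in TRPM2 KO and 220.0 ± 21.9 in Scr, with every KO library below every Scr library and a log2 fold change of -0.39 ± 0.08 (SE, adjusted p = 0.00195). Without clone KO11 the calls of STARD4 and SCD were lost as well (adjusted p = 0.0578 and 0.0785), which leaves 0 of the 3. SCAP, DHCR7 and ELOVL6 had every KO library below every Scr library without passing the test, at -0.22 ± 0.07 (SE, adjusted p = 0.0672), -0.25 ± 0.12 (SE, adjusted p = 0.230) and -0.20 ± 0.09 (SE, adjusted p = 0.217). SCAP was called by DESeq2 (adjusted p = 0.0258), with library size alone (adjusted p = 0.0380), with clone as a random block (adjusted p = 0.0412) and without Scr16 doxorubicin replicate 1 (adjusted p = 0.0408), at log2 fold changes from -0.26 to -0.22. In all, 6 members had groups that did not overlap (18.8%, against 13.2% of genes tested), and the median log2 fold change was -0.05 for members and 0.01 for all genes tested.

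Some fibroblast marker genes differed between the genotype labels and are given beside these results. COL1A1, COL3A1, DCN and LUM were higher in TRPM2 KO in both treatments (adjusted p from 8.71e-06 to 0.00469 untreated and from 2.23e-08 to 0.00185 after doxorubicin), and PDGFRA was higher untreated (adjusted p = 0.000203) but not called after doxorubicin (adjusted p = 0.399). THY1 was not called in either (adjusted p = 0.929 and 0.410), and COL1A2 was not called untreated (adjusted p = 0.325) and not tested after doxorubicin. Of 8 listed, 7 were in the tables, and their summed level ran from 125 to 271 normalized CPM in untreated Scr and from 270 to 395 in untreated TRPM2 KO. After doxorubicin the sum ran from 101 to 171 in Scr and from 279 to 357 in TRPM2 KO. Of these markers, COL3A1, a fibrillar collagen, had the highest mean over the 16 libraries and in both TRPM2 KO groups, but not in either Scr group. COL3A1 was at 139, 10.8, 41.1 and 30.3 normalized CPM in untreated Scr and at 194, 126, 215 and 165 in untreated TRPM2 KO. After doxorubicin COL3A1 was at 29.6, 6.88, 83.9 and 19.8 in Scr and at 214, 154, 215 and 174 in TRPM2 KO. Most of the difference in the sum lay in COL3A1. THY1 had means of 104 ± 1.85 in untreated Scr, where COL3A1 averaged 55.4, and 107 ± 13.7 in untreated TRPM2 KO. In Scr after doxorubicin THY1 averaged 81.2, against 35.1 for COL3A1. The part of these markers in the differences between genotypes was not tested.

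**Figure D5:**
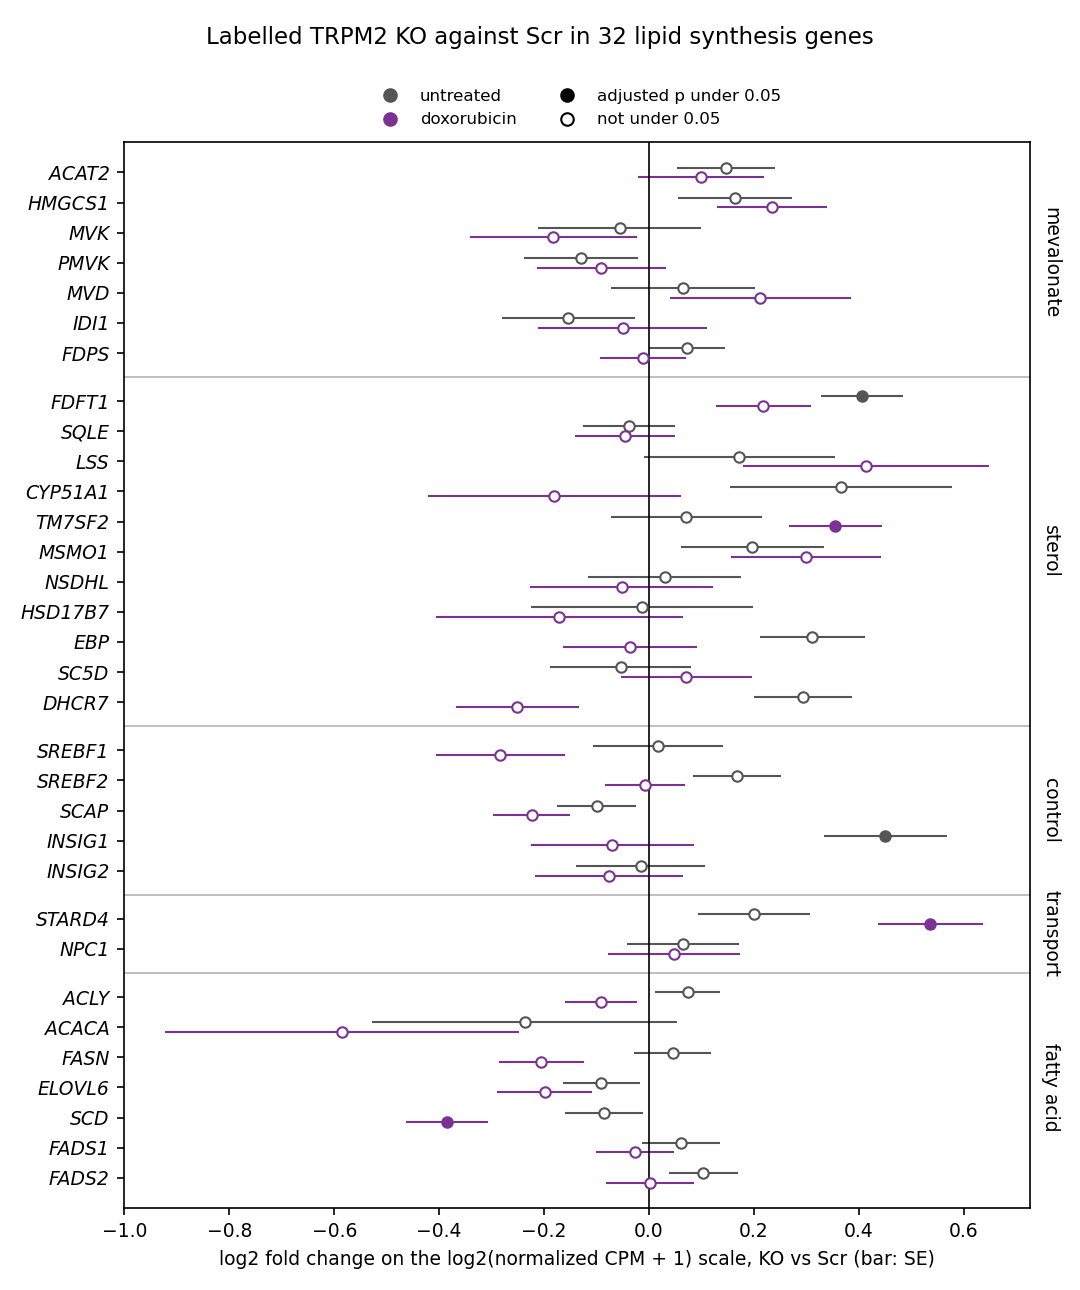
Log2 fold change of libraries labelled TRPM2 KO against Scr (x axis, log2(normalized CPM + 1) scale) for each of the 32 members, grouped by role (right), untreated (grey) and after doxorubicin (purple). Bars are standard errors and filled points passed an adjusted p of 0.05. INSIG1 is at 0.45 untreated and -0.07 after doxorubicin, and DHCR7 at 0.29 and -0.25.

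Whether the response to doxorubicin differed between the genotype labels was tested as an interaction over the 16 libraries. With limma, 0 of 32 members passed, where 5 of 15325 genes tested (0.0326%) did, and 6 members (18.8%, against 8.22% of genes tested) had an unadjusted p under 0.05. With edgeR 0 members passed and with DESeq2 1 did, DHCR7 (log2 -0.58, adjusted p = 0.0185). DHCR7 had the largest interaction among the 6, at -0.54 ± 0.14 (SE, adjusted p = 0.178), as its KO libraries lay above all Scr libraries untreated and below all of them after doxorubicin. INSIG1 had -0.51 ± 0.19 (SE, adjusted p = 0.440), EBP -0.34 ± 0.16 (SE, adjusted p = 0.595), SCD -0.29 ± 0.10 (SE, adjusted p = 0.360) and FASN -0.24 ± 0.11 (SE, adjusted p = 0.569), all negative, and STARD4 had 0.34 ± 0.14 (SE, adjusted p = 0.496). For 23 of the 32 members the interaction was negative, as it was for 6786 of the 15325 genes tested. The median was -0.09 for members and 0.03 over all genes tested. These signs were counted and not tested. All 7 fatty acid genes and all 5 control genes were on the negative side, and 3 of the 7 mevalonate genes were. Of the sterol genes, LSS, TM7SF2, MSMO1 and SC5D were on the positive side and the others on the negative side. Of the transport genes, STARD4 was positive and NPC1 negative.

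Other genes of lipid metabolism were read from a list of 53 related genes, of which 50 were in the tables and 49 were tested after doxorubicin. Of the 49, 4 rose (8.16%, against 6.95% of genes tested) and 6 fell (12.2%, against 5.65%) in Scr. In TRPM2 KO, 4 rose (8.16%, against 10.3%) and 8 fell (16.3%, against 7.43%). The median log2 fold change of the list was 0.01 in Scr and -0.03 in TRPM2 KO. The genes that fell had log2 fold changes from -0.44 to -0.29 in Scr and from -0.46 to -0.23 in TRPM2 KO, and most of those with the largest changes, which are named here, rose. ABCG1, a sterol exporter and a target of the LXR receptors, was at 20.9, 17.4, 14.7 and 15 normalized CPM in untreated Scr and 41.5, 35.8, 28.8 and 27 after doxorubicin. In TRPM2 KO, ABCG1 was at 10.1, 11.1, 8.99 and 10.7 untreated and at 23.7, 22.9, 21.1 and 19.6 after doxorubicin. It was higher in every treated library of a genotype than in any untreated one, with log2 fold changes of 0.92 ± 0.13 (SE, adjusted p = 1.03e-05) and 1.03 ± 0.13 (SE, adjusted p = 1.14e-06). FADS3, a desaturase homologue, rose by a log2 fold change of 0.63 ± 0.16 (SE, adjusted p = 0.00847) in Scr and 1.01 ± 0.16 (SE, adjusted p = 3e-05) in TRPM2 KO. GPAM, the mitochondrial acyltransferase that begins triglyceride synthesis, fell at -0.44 ± 0.08 (SE, adjusted p = 0.000635) in Scr and -0.33 ± 0.08 (SE, adjusted p = 0.00521) in TRPM2 KO, and ELOVL4, an elongase of very long chains, rose in TRPM2 KO at 0.55 ± 0.18 (SE, adjusted p = 0.0305). In untreated libraries 48 of the 53 were tested and 2 were lower in TRPM2 KO (4.17%, against 2.54% of genes tested) and 0 higher, so that 4.17% changed beside 4.84% of all genes tested. The 2 were FABP5, a fatty acid binding protein, at -2.13 ± 0.28 (SE, adjusted p = 3.52e-05), and ABCG1 at -0.67 ± 0.16 (SE, adjusted p = 0.0145). After doxorubicin 3 of 49 differed (6.12%, against 8.69%). FABP5 and ABCG1 were again lower in TRPM2 KO, at -1.66 ± 0.32 (SE, adjusted p = 0.00128) and -0.57 ± 0.14 (SE, adjusted p = 0.0108), and NPC2, the lysosomal partner of NPC1, was higher at 0.46 ± 0.13 (SE, adjusted p = 0.0209). FABP5 was a low gene, at 2.48, 5.81, 5.59 and 5.05 normalized CPM in untreated Scr and 0.441, 0.301, 0 and 0.365 in untreated TRPM2 KO. In the interaction 0 of the 49 passed, with 2 at an unadjusted p under 0.05 (4.08%, against 8.22% of genes tested).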

How the data were processed

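Per the labels, polyA-selected libraries from SH-SY5Y clones were made with a directional kit and processed by the authors with bcl2fastq, HISAT2 2.1.0, HTSeq, edgeR and GRCh38. The use of strand in counting is not given in the sources used here. The deposited library values are a signal, normalized CPM scaled by the authors with a factor per library. The deposited log2 fold changes, p-values, q-values and rankings are the authors' own comparisons and were not used. Whole reads were recovered for 100% of values (tolerance 0.01), and 0 columns were left over. Symbols were found for 95.0% of identifiers in a table of gene names. GENCODE 29 held 95.9% of identifiers and gave exon lengths and overlaps.

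Genotypes were compared within a treatment with limma 3.58.1 (R 4.3.3) on log2(normalized CPM + 1). Doxorubicin and its interaction with genotype were tested on recovered reads, put on 1 scale by TMM factors over the 16 libraries, with a clone term. This moved a library's values by at most 0.965% from the deposited ones. Genes needed 1 CPM in 4 libraries. Calls are at a Benjamini-Hochberg adjusted p of 0.05 over all genes tested. A fold change is on the log2(CPM + 1) scale and understates that of low genes. edgeR 4.0.16 and DESeq2 1.42.0 on the recovered reads, other pseudocounts, filters and scalings, and fits without each library or clone were alternatives. The count test by edgeR called 636 and 1193 genes between genotypes, untreated and after doxorubicin, and 1867 (Scr) and 2568 (TRPM2 KO) genes after doxorubicin against untreated.

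All members are accounted for. Library values are given for those called in at least 1 test, and up to 3 other pathway genes called are named per test, by largest change, a doxorubicin gene with its value in both genotypes where it was called in both. Members, lists and tests were chosen with earlier results of these data known. The scripts were tested on simulated data. No library was a copy of its replicate from the same clone and treatment: chi-square per gene between these replicates was 7.45 to 15.6.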

Additional observations from a re-analysis of the deposited data

Results flagged for a closer look

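In the Scr doxorubicin group, 4 members had 1 library far from the other 3. HMGCS1 was highest in Scr13 replicate 1, at 43.8 normalized CPM, where the other 3 were between 35.0 and 36.4. TM7SF2 was highest in the same library, at 63.0, above 3 values between 55.5 and 55.8. EBP was lowest there, at 25.8, below 3 values between 32.5 and 33.4. FDPS was lowest in Scr16 replicate 1, at 82.0, below 3 values between 86.5 and 87.4. Of 76 groups of 4 libraries examined, 4 were flagged (5.26%), where about 1 in 20 is the rate for separate draws. The 4 were all in Scr after doxorubicin, and those of HMGCS1, TM7SF2 and EBP were in the same library. Genes of 1 library are not separate draws, so the pooled share cannot be set against that rate. The reason for the flags was not tested. Leaving out Scr13 doxorubicin replicate 1 or Scr16 doxorubicin replicate 1 ended no call of HMGCS1, TM7SF2 or FDPS in Scr.

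DHCR7 had every library labelled TRPM2 KO above every Scr library untreated and below every one after doxorubicin. Neither comparison passed the test by limma (adjusted p = 0.0885 untreated and 0.230 after doxorubicin), and DESeq2 called the untreated one (adjusted p = 0.0308). The interaction was -0.54 on the log2 scale, with an adjusted p of 0.178 by limma, which missed the threshold, and 0.0185 by DESeq2.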

How the results depend on the processing

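Of 35 called log2 fold changes of members, 16 kept their call and direction under every alternative, 0 turned direction, and 49 of 1040 alternative values lost the call. Leaving out 1 library at a time, members called ranged from 1 to 2 (main 2) for genotype untreated, 2 to 4 (main 3) after doxorubicin, 11 to 14 (13) for doxorubicin in Scr, 16 to 17 (17) in TRPM2 KO and 0 to 0 in the interaction. Genes called ranged over 508 to 678 (695), 814 to 1314 (1266), 1351 to 2065 (1931), 2022 to 2937 (2714) and 1 to 18 (5) in the same order, the 814 being without KO11 doxorubicin replicate 1.

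For genotype untreated, members called came to 4 with DESeq2, 1 with no filter on low values, 1 with replicates of a clone averaged, 1 without clone Scr13, 0 without Scr16 and 4 without KO28. Genes called came to 368 with no filter, 330 without Scr13 and 327 without Scr16. After doxorubicin, members came to 0 without clone KO11, and genes to 510 without KO11 and 575 without KO28. For doxorubicin in Scr, members came to 8 without clone Scr13, and genes to 551 without Scr13 and 905 without Scr16. In TRPM2 KO, genes came to 922 without KO11 and 1389 without KO28. Fits without a clone have fewer libraries.

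In the interaction, 5 genes became 10 with edgeR, 58 with DESeq2, 3 and 21 with pseudocounts of 0.25 and 4, 2 with no filter, 3 with no clone term, 0 without KO11, 9 without Scr13, 1 without Scr16, 1 without KO28 and 2 without the libraries that stood apart, a choice made after the data were seen. DESeq2 called 1 member, DHCR7. The cause of these moves was not tested. Replicate numbers are not stated to pair libraries, and deviations of same-numbered libraries correlated from -0.10 to 0.12 over 28 pairs of groups. With the replicate number as a block, 24 genes were called in the interaction, and members called were 2, 3, 15, 17 and 0 in the order above, with LSS (adjusted p = 0.0218) and ACLY (adjusted p = 0.0405) added for doxorubicin in Scr. Low members such as ACACA, LSS and CYP51A1 have few reads, which limits what could be detected.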
